A study of Mus musculus with 26 samples.

Results

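Axon guidance ligands and their receptors were followed in single thalamic neurons grouped by the cortical target of their axons. The set held every gene of the count table whose symbol belongs to the ephrins and Eph receptors, the semaphorins of classes 3 to 7, the plexins and neuropilins, Slit1 to Slit3 and Robo1 to Robo4, or the netrins (Ntn1, Ntn4 and Ntn5) with Dcc and Unc5a to Unc5d. This name rule, which used no measured value, took 68 of 36589 genes, 34 ligands and 34 receptors. At least 1 transcript of each of the 68 was counted.

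The cells were neurons of the mouse thalamus that were fluorescent after retrograde labelling, in which an agent taken up by axon endings is carried back to the cell body. Slices were kept with pronase and blockers of neural activity, thalamic areas were dissected and dissociated, and labelled neurons were picked by hand. The table counted molecular tags (UMIs, 1 for every transcript caught by its 3' end) in 1972 cells on 26 plates and in 3 sequencing batches. The cell table names auditory, motor, prefrontal, somatosensory and visual projection systems, and the comparison of those 5 systems was the design's question.

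All cells came from males, of age 64 to 112 in a unit not given in the sources used here, and neither the strain nor the labelling agent was given there. No treatment or genotype separated the groups. Cells of 1 animal and system were summed, because cells of an animal are not replicates. The result was 21 sums. Auditory neurons had 5 (380 cells), motor neurons 5 (484 cells), prefrontal neurons 4 (388 cells), somatosensory neurons 3 (285 cells) and visual neurons 4 (435 cells). A sum held 4317156 to 20322775 UMIs, and levels are given as CPM, a gene's UMIs scaled to the total of the sum. One animal identifier covers both auditory replicate 5 and visual replicate 1, with different sort dates and ages, and these were kept as separate sums. The 21 sums came from 13 sort dates, 12 of them with cells of 1 system only, so animals of a system can share a sort day. All somatosensory sums lay in batch 2 and all visual sums in batch 3, so for these systems batch and system are separated only by way of the other 3 systems.

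Ephrins are membrane-bound ligands, and Eph receptors, the tyrosine kinases that bind them, sort thalamic axons along cortical maps during development. Semaphorins signal through plexins, the secreted class 3 mostly with a neuropilin as partner. Slits repel axons through Robo receptors, whereas netrins attract through Dcc and repel through Unc5 receptors, and all of these are known for steering thalamic axons towards the cortex.

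The sequences just upstream of 3 EphA receptor genes are shown because Epha4 and Epha7 were both lower in auditory and higher in motor neurons, whereas Epha5 was lower in motor and higher in prefrontal neurons. Each run is the 250 bases before the transcription start in RefSeq, build GRCm38.p6, 5′ to 3′ on the gene's strand. Epha4 lies at chr1:77367185-77515088 and its window at chr1:77515089-77515338 (- strand). Epha5 lies at chr5:84054761-84417382 and its window at chr5:84417383-84417632 (- strand). Epha7 lies at chr4:28813131-28967499 and its window at chr4:28812881-28813130 (+ strand). Gene positions are from GENCODE vM21 on the same build.
Epha4: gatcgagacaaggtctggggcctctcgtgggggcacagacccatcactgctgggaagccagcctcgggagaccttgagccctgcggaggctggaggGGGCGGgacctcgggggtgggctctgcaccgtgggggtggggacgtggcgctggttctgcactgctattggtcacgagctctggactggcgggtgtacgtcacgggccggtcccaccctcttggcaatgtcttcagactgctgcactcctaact
Epha5: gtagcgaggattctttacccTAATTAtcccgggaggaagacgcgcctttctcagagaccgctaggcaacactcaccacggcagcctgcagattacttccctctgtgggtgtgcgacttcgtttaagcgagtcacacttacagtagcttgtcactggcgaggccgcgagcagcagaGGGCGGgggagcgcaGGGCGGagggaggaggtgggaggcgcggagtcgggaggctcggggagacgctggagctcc
Epha7: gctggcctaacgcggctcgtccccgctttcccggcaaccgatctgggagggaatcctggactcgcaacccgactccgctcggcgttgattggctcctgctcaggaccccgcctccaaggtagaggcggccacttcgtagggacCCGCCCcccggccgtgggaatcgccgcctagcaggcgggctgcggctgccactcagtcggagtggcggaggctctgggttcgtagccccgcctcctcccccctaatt
Capitals mark matches on either strand to the GC box GGGCGG and to the homeobox core TAATTA, and no 2 matches overlapped. The GC box was in all 3 windows, once in Epha4, once on the opposite strand in Epha7 and 2 times in Epha5, and it was in 32.7% of the 32851 mouse windows of this length. TAATTA was in the Epha5 window alone of the 3, and in 4.84% of all windows. Neither the TATA box TATAAA (12.4% of all windows) nor the TCF/LEF core CTTTGA (13.8%) was in these 3 windows. RefSeq windows were matched for 58 of the 68 genes.

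Levels ranged widely over the 68 genes. In 3' UMI counting each captured transcript counts once whatever its length, so CPM values of different genes were not divided by length. Over the 21 sums, 30 genes had a mean of at least 10 CPM, 2 of them of at least 100 CPM, and 15 had a mean under 1 CPM. Epha4, a receptor for ephrins of both A and B type, had a mean of 455 CPM and was detected in 93.5% of cells (89.8% after each cell was thinned to 20000 UMIs). Epha5, a receptor for ephrin-A ligands, had a mean of 124.7 CPM and was detected in 64.0% of cells (51.1% thinned). In all, 11 genes were detected in at least 50% of cells. Among the ligands, Sema6a (93.5 CPM), Sema5a (82.1 CPM), Sema6b (45.2 CPM), Sema6d (35.6 CPM) and Efna5 (35.6 CPM) had the highest means. Slits and netrins, the secreted cues, were at lower levels. Slit1 had a mean of 5.30 CPM, Slit2 1.65 CPM, Ntn4 3.60 CPM and Ntn1 0.067 CPM, and Slit3 reached 13.5 CPM. Dcc, the attractive netrin receptor, had a mean of 3.21 CPM, against 82.1 CPM for Unc5c, which mediates repulsion.

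The filter on low counts left out 8 of the 68: Efna1, Epha2, Ephb4, Sema3d, Robo3, Robo4, Ntn1 and Ntn5. The other 60 were tested with edgeR's quasi-likelihood test with batch as a covariate, and p-values were adjusted by Benjamini-Hochberg over all 17211 genes tested. An adjusted p under 0.05 counts as a call. The replicate is the animal named in the deposited cell table. Sums over cells do not tell fewer cells that make a transcript from less of it per cell, so shares of cells are given beside the levels of some genes.

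Among the 5 systems 18 of 60 tested genes were called, where 12.6% of all genes tested were. EphA receptors had 6 of 8 tested genes called (Epha3, Epha4, Epha5, Epha7, Epha8 and Epha10), EphB receptors 1 of 4 (Ephb6), and class 5 to 7 semaphorins 5 of 7 (Sema5a, Sema5b, Sema6a, Sema6d and Sema7a). Class 3 semaphorins had 1 of 6 (Sema3f), plexins 1 of 9 (Plxna2), Slits 1 of 3 (Slit1), Robo receptors 1 of 2 (Robo1) and netrin receptors 2 of 5 (Unc5b and Unc5c). None of the 4 tested ephrin-A ligands, 3 ephrin-B ligands, 6 class 4 semaphorins, 2 neuropilins or the 1 tested netrin was called among systems by edgeR. At an unadjusted p under 0.05, 30 of the 60 passed in edgeR, and DESeq2 called 25. The shares of all genes are not given here for those 2 counts, and the 12.6% does not apply to them. By role, 7 of 30 tested ligands and 11 of 30 tested receptors were called.

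Motor and somatosensory neurons held most Epha4, and auditory and prefrontal neurons least. The auditory sums held Epha4 at 302.8, 334.0, 281.8, 351.8 and 227.5, and those of motor neurons at 583.1, 638.3, 631.3, 676.7 and 693.8. Prefrontal levels were 275.6, 189.5, 296.8 and 422.0, somatosensory levels 527.6, 588.6 and 596.0, and visual levels 563.6, 475.5, 413.9 and 484.3. All values are in CPM, here and in the following sentences on levels. Every motor, somatosensory and all but 1 visual sum lay above every auditory and prefrontal sum; the exception, visual at 413.9, lay under the highest prefrontal sum at 422.0. Epha4 was higher in motor than in the mean of the other 4 systems by 0.73 ± 0.12 (log2 fold change ± SE, adjusted p = 0.0012). It was lower, at -0.68 ± 0.13 in auditory (adjusted p = 0.0025) and at -0.70 ± 0.14 in prefrontal neurons (adjusted p = 0.0023). The auditory call ended without batch 2 (-0.60, adjusted p = 0.12). The prefrontal call ended without batch 1 (-0.45, adjusted p = 0.18) or batch 2 (-0.60, adjusted p = 0.063). The share of cells with an Epha4 UMI went from 80.3% in auditory and 79.6% in prefrontal to 97.1% in motor and 98.3% in somatosensory cells after thinning (86.6%, 86.9%, 98.8% and 98.9% before).

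Prefrontal neurons held most Epha5. Epha5 stood at 189.7, 144.3, 97.7, 62.3 and 144.8 in the auditory sums, at 77.01, 62.8, 68.97, 106.3 and 73.8 in the motor sums and at 319.7, 255.8, 243.8 and 211.3 in the prefrontal sums. Somatosensory animals had 75.8, 42.1 and 64.3, and visual animals 71.5, 90.1, 122.5 and 93.5. The 4 prefrontal sums lay above all 17 others, and the ranges of the other 4 systems overlapped. The rise in prefrontal neurons was 1.49 ± 0.18 (log2, adjusted p = 1.2e-05). In motor neurons Epha5 was lower, at -0.68 ± 0.18 (adjusted p = 0.033). That motor call ended without auditory replicate 5, motor replicate 1, 2 or 5, or somatosensory replicate 1 or 3 (adjusted p up to 0.13). It also ended without batch 1 (-0.46, adjusted p = 0.46) or batch 3 (-0.97, adjusted p = 0.073).

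Epha7, a receptor that prefers ephrin-A ligands, was scarce in auditory neurons. Auditory animals had Epha7 at 14.5, 20.9, 15.7, 49.4 and 16.2, motor animals at 86.7, 78.7, 96.6, 129.9 and 99.8 and prefrontal animals at 45.9, 43.2, 125.4 and 85.5. In somatosensory neurons the levels were 84.9, 80.8 and 92.7, and in visual neurons 81.7, 41.5, 49.99 and 76.7. Auditory replicate 4 stood at 49.4, above 3 of the other systems' 16 sums, and the other 4 auditory sums lay under all of them. Epha7 fell by 1.77 ± 0.24 in auditory neurons (log2, adjusted p = 9.3e-05) and rose by 1.05 ± 0.21 in motor neurons (adjusted p = 0.0052). The motor call ended in sums per sort date (0.93, adjusted p = 0.06), with no batch term (0.84, adjusted p = 0.056), without batch 1 (0.92, adjusted p = 0.16) and without batch 3 (1.05, adjusted p = 0.099).

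Epha10, an Eph receptor without kinase activity, separated visual neurons from the rest. The auditory sums held Epha10 at 69.5, 65.9, 68.5, 59.7 and 48.9, and those of motor neurons at 74.3, 81.5, 45.5, 46.7 and 41.6. Prefrontal levels were 76.6, 52.9, 65.3 and 72.97, somatosensory levels 44.9, 24.1 and 41.8, and visual levels 11.1, 17.2, 11.2 and 21.3. The 4 visual sums lay under the 17 others. Epha10 was lower, at -1.63 ± 0.26 in visual neurons (log2, adjusted p = 0.0058), a call that ended without prefrontal replicate 4 (-1.42, adjusted p = 0.056). In prefrontal neurons it was higher by 0.73 ± 0.18 (adjusted p = 0.012), which ended without prefrontal replicate 3 (adjusted p = 0.072) or 4 (adjusted p = 0.18). The auditory value of 0.57 ± 0.17 (adjusted p = 0.048) passed narrowly and ended without any of 17 sums, all but motor replicate 2, prefrontal replicate 4, somatosensory replicate 1 and visual replicate 4 (adjusted p 0.054 to 0.16). Without batch 3, and so without any visual sum, the value was 0.17 in prefrontal (adjusted p = 0.74) and 0.19 in auditory neurons (adjusted p = 0.66). The test of Epha10 among systems then gave an adjusted p of 0.44. Without batch 2 the prefrontal call ended too (0.71, adjusted p = 0.059). The auditory call ended without batch 1 (0.62, adjusted p = 0.11) or batch 2 (0.47, adjusted p = 0.34). Within batch 1 alone the Epha10 value was -0.10 in auditory and -0.18 in prefrontal neurons, the opposite direction in both.

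Epha3, which binds ephrin-A ligands, was high in auditory and visual neurons. Epha3 stood at 34.2, 29.9, 35.6, 41.04 and 20.6 in the auditory sums, at 10.2, 6.78, 12.6, 11.2 and 15.6 in the motor sums and at 20.97, 9.001, 26.1 and 14.4 in the prefrontal sums. Somatosensory animals had 6.89, 6.64 and 10.8, and visual animals 32.5, 31.6, 26.2 and 19.8. The lowest auditory sum, 20.6, lay above every motor and somatosensory sum. Epha3 was higher in auditory neurons by 1.11 ± 0.22 (log2, adjusted p = 0.0032), and the visual value of 1.02 ± 0.33 missed the threshold (adjusted p = 0.35). The auditory call ended without batch 1 (0.85, adjusted p = 0.057) or batch 2 (0.80, adjusted p = 0.23).

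Epha8 had its highest levels in visual neurons, whose sums all lay in batch 3, but the visual value of 0.85 ± 0.35 (log2) was not called (adjusted p = 0.54). Levels also differed between batches inside systems. In batches 1, 2 and 3 the means were 13.9, 23.8 and 29.45 in motor, 3.23, 9.45 and 22.6 in prefrontal and 12.1, 18.7 and 14.8 in auditory neurons. Auditory animals had Epha8 at 13.3, 10.8, 18.5, 18.9 and 14.8, motor animals at 13.5, 14.4, 23.8, 28.4 and 30.5 and prefrontal animals at 2.66, 3.81, 9.45 and 22.6. In somatosensory neurons the levels were 19.3, 11.01 and 10.3, and in visual neurons 48.5, 30.7, 46.04 and 30.1. The visual range (30.1 to 48.5) touched only the highest motor sum. The test among systems gave an adjusted p of 0.032, which ended without motor replicate 1, 2 or 3, prefrontal replicate 1, 2 or 3, or visual replicate 1 or 3 (adjusted p up to 0.092). This call among systems also ended without batch 1 (adjusted p = 0.23) or batch 2 (adjusted p = 0.1). In prefrontal neurons Epha8 was lower, at -1.10 ± 0.28 (adjusted p = 0.016), which ended without prefrontal replicate 1, 2 or 3 (adjusted p 0.065 to 0.074). That prefrontal call also ended without batch 1 (-0.59, adjusted p = 0.47).

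Ephb6, a member of the EphB group that lacks kinase activity, was higher in auditory neurons. The auditory sums held Ephb6 at 85.96, 73.9, 38.2, 56.9 and 61.4, and those of motor neurons at 41.5, 30.5, 34.95, 35.9 and 29.1. Prefrontal levels were 53.6, 46.4, 54.7 and 49.7, somatosensory levels 28.8, 25.2 and 32.6, and visual levels 37.99, 41.2, 41.7 and 44.2. Auditory replicate 3, at 38.2, lay within the motor range, and the other 4 auditory sums lay above every prefrontal, visual, motor and somatosensory sum. The difference was 0.63 ± 0.14 (log2, adjusted p = 0.0062), a call that ended without batch 1 (0.41, adjusted p = 0.17) or batch 3 (0.63, adjusted p = 0.071).

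**Figure D1:**
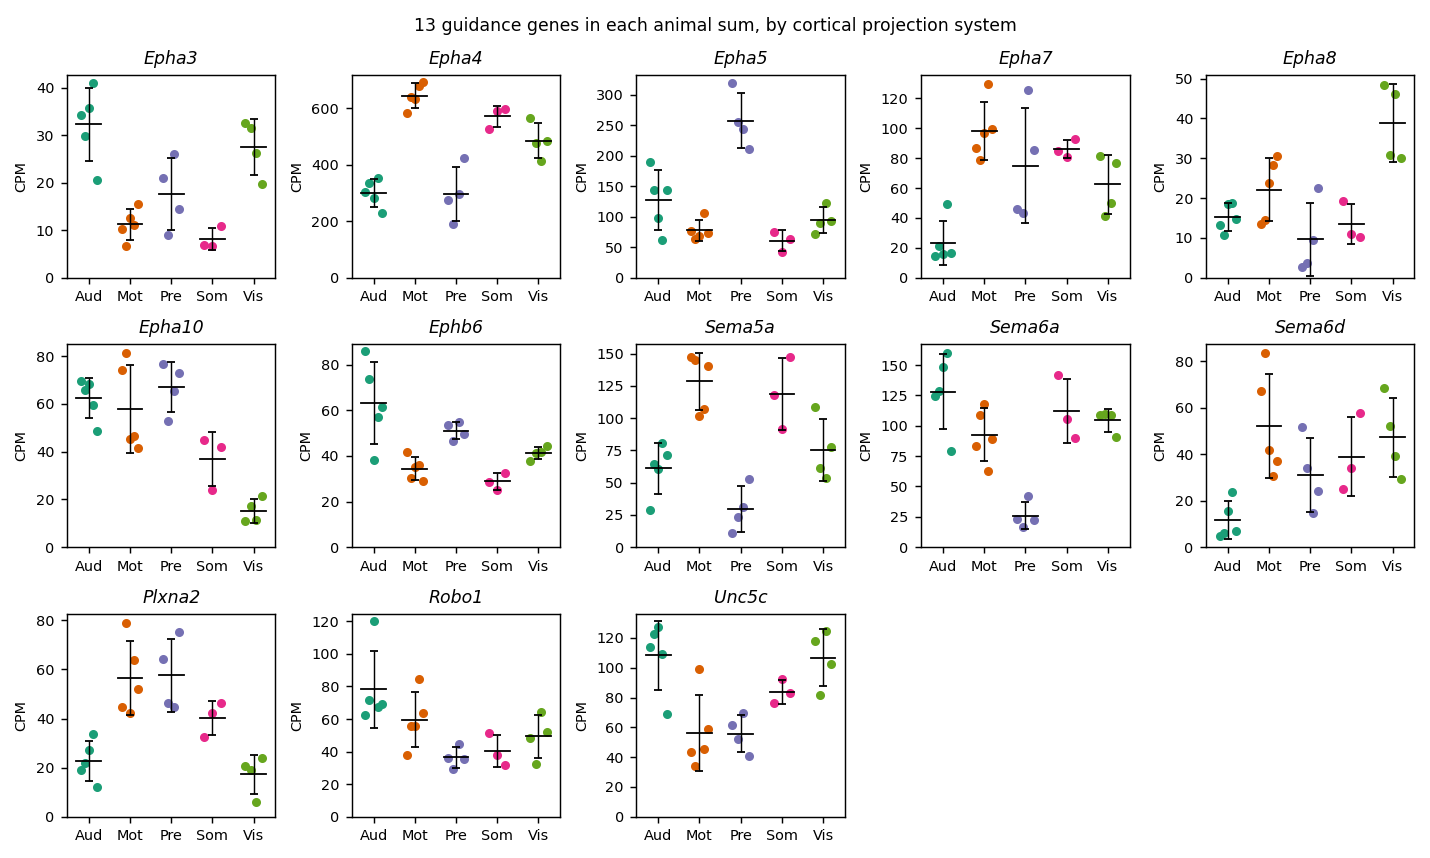
Levels of 13 guidance genes in CPM (y axis, linear, from 0) in each animal sum (points) by projection system (x axis: auditory, motor, prefrontal, somatosensory, visual); horizontal lines are means and bars 1 SD. The 4 prefrontal sums stand above all others for Epha5 and under all others for Sema6a, and the 4 visual sums under all others for Epha10.

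Among the transmembrane semaphorins, which act as ligands and can also signal as receptors, Sema6a was the most sharply divided. Sema6a stood at 124.1, 128.7, 148.3, 160.0 and 79.2 in the auditory sums, at 83.4, 109.0, 118.3, 62.8 and 89.4 in the motor sums and at 22.9, 16.2, 42.4 and 22.7 in the prefrontal sums. Somatosensory animals had 141.5, 105.8 and 89.6, and visual animals 108.7, 109.9, 108.9 and 90.7. The highest prefrontal sum, 42.4, lay under the lowest sum of every other system, 62.8 in motor neurons. Sema6a fell by 2.09 ± 0.18 in prefrontal neurons (log2, adjusted p = 2.5e-07) and rose by 0.67 ± 0.14 in auditory neurons (adjusted p = 0.0041). The auditory call ended without batch 1 (0.49, adjusted p = 0.061). Sema6a was detected in 24.2% of prefrontal cells and in 59.7% to 72.3% of the cells of the other systems after thinning (42.0% and 76.3% to 88.1% before).

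Sema5a, a class 5 semaphorin that can attract or repel axons, was highest in motor and somatosensory neurons. Auditory animals had Sema5a at 28.5, 64.7, 60.9, 80.5 and 71.8, motor animals at 147.3, 144.9, 101.7, 107.4 and 140.7 and prefrontal animals at 11.1, 23.6, 30.9 and 52.95. In somatosensory neurons the levels were 118.1, 91.6 and 147.3, and in visual neurons 108.5, 61.2, 53.7 and 77.5. The lowest motor and somatosensory sums (101.7 and 91.6) lay above every auditory and prefrontal sum. Sema5a rose by 1.13 ± 0.24 in motor neurons (log2, adjusted p = 0.0074), a call that ended in sums per sort date (0.98, adjusted p = 0.068) and without batch 1 (0.64, adjusted p = 0.17). It fell by 1.61 ± 0.29 in prefrontal neurons (adjusted p = 0.00078).

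Sema6d, a ligand of class A plexins, was low in auditory neurons. The auditory sums held Sema6d at 5.04, 6.001, 15.7, 23.9 and 7.18, and those of motor neurons at 67.2, 83.4, 41.98, 30.6 and 36.9. Prefrontal levels were 51.8, 33.9, 14.6 and 24.3, somatosensory levels 25.1, 34.2 and 57.7, and visual levels 68.3, 52.00, 39.4 and 29.3. Auditory replicates 1, 2 and 5 lay under all 16 sums of the other systems, and replicates 3 and 4 overlapped with prefrontal sums. The fall in auditory neurons was -2.13 ± 0.39 (log2, adjusted p = 0.0015), a call that ended without batch 1 (-1.29, adjusted p = 0.06).

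Other semaphorins were called at low levels. Sema3f, a secreted ligand that acts through Nrp2, was at 10.5 to 26.4 CPM in the 5 auditory sums and at 0 to 4.87 CPM in all others, with 0 in 2 of 5 motor sums. It rose by 3.58 ± 0.57 in auditory neurons (log2, adjusted p = 0.00043). It fell by 3.63 ± 0.86 in motor neurons (adjusted p = 0.017), a call that ended without motor replicate 5 (adjusted p = 0.055). That motor call also ended without batch 1 (-3.83, adjusted p = 0.13) or batch 3 (-4.18, adjusted p = 0.11). Sema7a, a membrane-anchored ligand of Plxnc1 and integrins, was at 0.55 to 5.27 CPM in auditory and 0.59 to 6.20 CPM in prefrontal sums, against 6.15 to 16.5 in motor, 12.2 to 19.6 in somatosensory and 8.62 to 14.2 in visual sums. In auditory neurons Sema7a fell by 2.66 ± 0.47 (adjusted p = 0.0011), and in motor neurons it rose by 1.44 ± 0.38 (adjusted p = 0.035). The motor call for Sema7a ended without auditory replicate 1 or 2, motor replicate 1, 2 or 5, somatosensory replicate 1 or 3, or visual replicate 3 (adjusted p 0.051 to 0.17). It also ended without batch 1 (1.02, adjusted p = 0.28) or batch 3 (1.99, adjusted p = 0.13).

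Another 3 scarce semaphorins were higher in prefrontal neurons, with ranges that overlapped those of other systems. Sema5b, the other class 5 member, was at 18.02, 18.1, 3.99 and 6.28 CPM in the prefrontal sums, at 0.19 to 6.13 CPM in motor sums and at no more than 0.896 CPM in all auditory, somatosensory and visual sums. Prefrontal replicate 3 lay under motor replicate 2. Sema5b rose by 4.63 ± 0.77 in prefrontal neurons (log2, adjusted p = 0.00042) and was detected in 8.51% of prefrontal cells after thinning (15.7% before). Sema3a, a secreted repellent that acts through Nrp1, was at 0.51 to 3.40 CPM in prefrontal sums, at 0 in all 4 visual sums and at no more than 1.90 CPM elsewhere, and its ranges overlapped with auditory and motor sums. Pooled, the prefrontal level of 2.21 CPM was at least 23.8-fold higher than the visual one, with the visual group set to its floor of 3 counts (0.093 CPM). Without prefrontal replicate 3, which held 69 of the 103 UMIs, the bound was 13.9-fold. In batch 3, which held all visual sums, the 1 prefrontal sum was at 0.51 CPM, with 3 UMIs. Sema3a was detected in 3.09% of prefrontal and 2.69% of motor cells before thinning. Sema3c, another secreted class 3 ligand, was at 0 to 3.80 CPM in prefrontal sums and at 0 in all 3 somatosensory sums, a difference of at least 21.6-fold on the same kind of floor (0.085 CPM). Without prefrontal replicate 2, which held 52 of the 86 UMIs, the bound was 12.1-fold. In batch 2, which held all somatosensory sums, the 1 prefrontal sum was at 0.98 CPM. Sema3c was detected in 2.06% of prefrontal cells before thinning. Prefrontal replicate 1 was at 0, and auditory sums reached 2.55 CPM. Both were called in prefrontal neurons, with fitted values that depend on the prior count because a system is at 0: 3.87 ± 1.00 for Sema3a (adjusted p = 0.019) and 4.80 ± 1.22 for Sema3c (adjusted p = 0.016). The Sema3a call ended without prefrontal replicate 3 (2.64, adjusted p = 0.24), without batch 2 (2.79, adjusted p = 0.27) and without batch 3 (3.28, adjusted p = 0.055). The Sema3c call ended without batch 1 (3.70, adjusted p = 0.086), 2 (4.49, adjusted p = 0.11) or 3 (5.74, adjusted p = 0.078).

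Plexins and neuropilins, the semaphorin receptors, gave few calls. Plxna2, a receptor for class 6 semaphorins, was highest in motor and prefrontal neurons. Plxna2 stood at 19.1, 21.98, 27.2, 33.8 and 12.3 in the auditory sums, at 44.8, 79.1, 42.4, 63.6 and 52.1 in the motor sums and at 64.4, 46.2, 44.5 and 75.2 in the prefrontal sums. Somatosensory animals had 32.4, 42.1 and 46.2, and visual animals 20.6, 18.97, 5.83 and 23.9. All motor and prefrontal sums lay above all auditory and visual sums. Plxna2 was higher by 0.89 ± 0.25 in motor neurons (log2, adjusted p = 0.045). It was higher by 0.88 ± 0.26 in prefrontal neurons (adjusted p = 0.036).

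Both Plxna2 calls were narrow. The motor one ended without any of 14 sums, which were auditory replicates 1, 2, 3 and 5, motor replicates 1, 2, 4 and 5, prefrontal replicates 1 and 2, somatosensory replicates 1, 2 and 3, and visual replicate 2 (adjusted p 0.051 to 0.18). The prefrontal one ended without auditory replicate 1 or 2, motor replicate 1, prefrontal replicate 1 or 4, or somatosensory replicate 1 or 2 (adjusted p 0.051 to 0.31). The motor call also ended without batch 1 (0.73, adjusted p = 0.41) or batch 3 (0.57, adjusted p = 0.37). The prefrontal call did so without batch 1 (0.92, adjusted p = 0.24) or batch 3 (0.40, adjusted p = 0.42). The test of Plxna2 among all systems kept its call without each sum in turn, but ended without batch 3 (adjusted p = 0.053).

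Plxna3, which partners neuropilins in class 3 signalling, was at 17.7 to 34.1 CPM in prefrontal sums and at 2.63 to 25.1 CPM in the others. It was higher in prefrontal neurons by 1.24 ± 0.34 (log2, adjusted p = 0.023), a call that ended without prefrontal replicate 2 (adjusted p = 0.082), 3 (0.057) or 4 (0.21). The Plxna3 call also ended without batch 1 (1.38, adjusted p = 0.17) or batch 3 (1.08, adjusted p = 0.2). Nrp1, the partner that binds Sema3a, was at 0.44 to 3.29 CPM in prefrontal sums, against 5.33 to 16.6 in motor and 5.52 to 19.1 in visual sums. Auditory sums, at 2.27 to 10.4 CPM, and somatosensory sums, at 0.095 to 6.96 CPM, overlapped the prefrontal range. It was lower in prefrontal neurons, at -2.20 ± 0.65 (adjusted p = 0.035), a call that ended without motor replicate 1, prefrontal replicate 1, 3 or 4, or somatosensory replicate 3 (adjusted p 0.055 to 0.14). The Nrp1 call also ended without batch 1 (-2.51, adjusted p = 0.2) or batch 3 (-2.22, adjusted p = 0.19). Nrp2, the partner for Sema3f, was at 0 to 0.93 CPM in prefrontal and 0.24 to 15.0 CPM in visual sums and was not called.

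Slit1 and Robo1 differed between systems, and Robo2 was not called among systems. Slit1, a secreted repellent, was at 3.90 to 25.4 CPM in prefrontal sums and at 1.32, 3.84, 1.25, 0.27 and 0.57 CPM in motor sums, with auditory sums at 0.81 to 10.4 CPM overlapping both. The adjusted p among systems was 0.038, which ended without auditory replicate 2 or 4, motor replicate 1, 3, 4 or 5, prefrontal replicate 2 or 3, or visual replicate 2 or 4 (adjusted p up to 0.11). Slit1 was lower in motor neurons, at -2.20 ± 0.59 (log2, adjusted p = 0.038) and higher in prefrontal neurons by 1.68 ± 0.52 (adjusted p = 0.047). The motor call ended without auditory replicate 2, motor replicate 1, 3, 4 or 5, prefrontal replicate 2, somatosensory replicate 3, or visual replicate 2, 3 or 4 (adjusted p 0.051 to 0.13). The prefrontal call ended without any of 14 sums, which were auditory replicates 1, 2 and 4, motor replicates 1 and 5, all prefrontal replicates, somatosensory replicates 1 and 2, and visual replicates 1, 2 and 4 (adjusted p 0.052 to 0.32). Without batch 1, 2 or 3 the call among systems ended (adjusted p 0.31, 0.058 and 0.068). The motor call ended without batch 1 (-2.46, adjusted p = 0.25) or batch 3 (-1.99, adjusted p = 0.2). The prefrontal call ended without batch 1 (1.70, adjusted p = 0.34) or batch 2 (1.47, adjusted p = 0.19).

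Robo1, a receptor for Slits, was highest in auditory neurons. Auditory animals had Robo1 at 62.6, 71.8, 120.2, 67.4 and 69.5, motor animals at 38.2, 55.9, 55.9, 84.4 and 63.6 and prefrontal animals at 36.2, 29.4, 44.9 and 35.5. In somatosensory neurons the levels were 51.2, 38.2 and 32.04, and in visual neurons 48.6, 32.4, 64.4 and 51.9. Auditory sums lay above all others except motor replicates 4 and 5 and visual replicate 3. The difference was 0.78 ± 0.17 (log2, adjusted p = 0.0054), a call that ended without batch 1 (0.75, adjusted p = 0.061) or batch 2 (0.62, adjusted p = 0.14).

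Of the netrin receptors, Unc5c and Unc5b were called. The auditory sums held Unc5c at 113.7, 122.7, 127.0, 108.9 and 69.3, and those of motor neurons at 43.4, 34.2, 99.2, 45.8 and 58.7. Prefrontal levels were 61.3, 51.96, 69.4 and 40.7, somatosensory levels 76.4, 92.5 and 82.8, and visual levels 118.2, 81.8, 124.8 and 102.2. All prefrontal sums lay under every somatosensory and visual sum, and motor replicate 3, at 99.2, stood apart from 4 motor sums of 34.2 to 58.7. Unc5c had an adjusted p of 0.0012 among systems and was lower in prefrontal neurons, at -0.61 ± 0.18 (log2, adjusted p = 0.038). That prefrontal call ended without auditory replicate 1 or 2, prefrontal replicate 2, 3 or 4, somatosensory replicate 2 or 3, or visual replicate 1 (adjusted p 0.052 to 0.16). It also ended without batch 2 (-0.69, adjusted p = 0.079) or batch 3 (-0.33, adjusted p = 0.48). Unc5b was at 5.95 to 13.2 CPM in prefrontal and 3.08 to 8.37 CPM in motor sums, and at 0 to 2.65 CPM in all other sums, so the 9 prefrontal and motor sums lay above the other 12. It was higher in prefrontal neurons by 2.76 ± 0.71 (adjusted p = 0.016), a call that ended without prefrontal replicate 3 (adjusted p = 0.16) or 4 (adjusted p = 0.064). The Unc5b call also ended without batch 1 (3.25, adjusted p = 0.062) or batch 3 (2.40, adjusted p = 0.12). Among systems Unc5b was lost without batch 3 (adjusted p = 0.18).

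By system, prefrontal neurons had the most calls: 15 of 60, 9 higher (15.0% of the tested members, against 5.19% of all genes) and 6 lower (10.0% against 3.97%). Auditory neurons had 10, with 6 higher (10.0% against 4.28%) and 4 lower (6.67% against 3.69%). Motor neurons had 8, with 5 higher (8.33% against 2.32%) and 3 lower (5.0% against 1.59%). Visual neurons had 1, the lower Epha10, where 0.0988% of all genes were lower and 0.0465% higher. Somatosensory neurons had 0 called by edgeR, where 0.0349% of all genes were higher and 0.198% lower. At an unadjusted p under 0.05, 9 members passed, and DESeq2 called 1, with no share of all genes given here for either. The 3 somatosensory sums came from 1 batch, and the smallest adjusted p there was 0.065, for a lower Epha3 (-1.60 ± 0.35). The median log2 fold change over the 60 tested members was 0.22 in prefrontal, 0.17 in auditory, 0.06 in motor, -0.18 in somatosensory and 0.02 in visual neurons, against medians over all genes of -0.01 to 0.03.

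**Figure D2:**
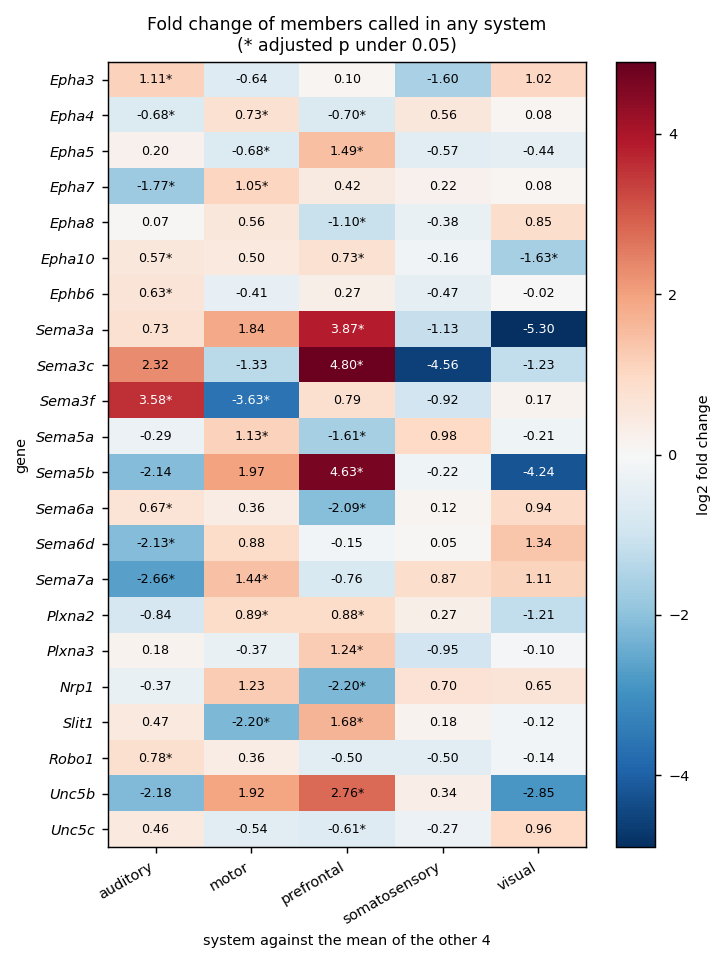
Log2 fold change (colour and number) of the 22 members called in any system against the mean of the other 4 (x axis), with an asterisk at an adjusted p under 0.05. Prefrontal neurons carry 15 asterisks, auditory 10, motor 8, visual 1 and somatosensory 0; the values of Sema3a and Sema3c depend on the prior count.

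The direction of calls was checked within each batch. Within batch 1, 2 and 3 the auditory calls kept their direction in 9 of 10, 10 of 10 and 10 of 10 genes, and the motor calls in 8 of 8 each time. Of the prefrontal calls that could be fitted, 13 of 14, 15 of 15 and 14 of 14 kept it; the exceptions were the Epha10 values in batch 1 given above. Motor and prefrontal neurons had 1 sum each in batch 2, and auditory and prefrontal neurons 1 each in batch 3, and there the fit assumes that the lone sum varies like the other groups. Sema6a in prefrontal neurons was at -2.52, -1.60 and -1.94 (log2) within the 3 batches and Epha5 at 1.40, 1.79 and 0.96. Epha7 in auditory neurons was at -1.80, -1.72 and -2.41. Some values that kept their direction were near 0 in batch 3. Epha4 in prefrontal neurons was at -0.94, -0.73 and -0.024 and Epha8 at -2.004, -0.97 and -0.21. Epha3 in auditory neurons was at 1.485, 1.397 and 0.217.

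Calls were also lost when cells were summed by sort date in place of animal. Of the 8 motor calls the Epha4 call was kept. Beside Epha7 and Sema5a, those lost were Epha5 (-0.62, adjusted p = 0.12), Plxna2 (0.80, adjusted p = 0.16), Sema3f (-3.73, adjusted p = 0.1), Sema7a (1.34, adjusted p = 0.06) and Slit1 (-2.18, adjusted p = 0.19). In prefrontal neurons Epha8 (-0.91, adjusted p = 0.11), Plxna2 (0.84, adjusted p = 0.061), Slit1 (1.65, adjusted p = 0.11) and Sema3a (4.01, adjusted p = 0.071) were lost, and in auditory neurons Epha10 (0.52, adjusted p = 0.16). Among the 5 systems Epha8, Ephb6, Sema6d and Slit1 were lost (adjusted p 0.17, 0.074, 0.052 and 0.15). With no batch term, motor Epha5 (-0.58, adjusted p = 0.14), Sema7a (1.06, adjusted p = 0.21) and Slit1 (-1.74, adjusted p = 0.18) and prefrontal Epha8 (-1.13, adjusted p = 0.065), Nrp1 (-1.92, adjusted p = 0.076) and Unc5c (-0.63, adjusted p = 0.056) were lost.

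The cells' identity was checked against markers. Thalamic neuron markers (Slc17a6, Tcf7l2, Snap25, Rbfox3 and Syt1) summed to 5861 to 8609 CPM in every sum. Markers of other cells were lower: the 3 GABA neuron markers reached at most 21.3 CPM, almost all of it Gad2 (Gad1 and Slc32a1 were at most 0.51 CPM), the 6 astrocyte markers 23.98 CPM, the 5 endothelial or mural markers 5.71 CPM and the 2 oligodendrocyte precursor markers 0.833 CPM. The 2 cortical neuron markers, of which Slc17a7 is also made in thalamus, were at 6.25 to 51.5 CPM. Of the 6 microglia markers C1qb stood at 79.2 to 158.7 CPM in every sum and the other 5 at 0 to 9.88 CPM. The 7 oligodendrocyte markers reached 393.1 CPM, and at most 113.4 CPM without 20 cells that the authors flag, each with at least 3 of those markers. No prefrontal cell was flagged. The flagged cells held 26.3% of all Efnb3 UMIs, 57.9% of Plxnb3 UMIs and 7.39% of Unc5b UMIs, and without them 19 members were called among systems and the auditory Epha10 call ended (0.54, adjusted p = 0.058). In all, 51 cells held at least 3 markers of a non-neuronal type, 10 of them prefrontal and 8 of those in prefrontal replicate 2. Shares of all genes are not given here for the counts of calls without the flagged cells or without the 51 cells. Without the 51 cells 18 members were called among systems, 10 in auditory, 7 in motor and 13 in prefrontal neurons. Calls that ended there were Slit1 (1.59, adjusted p = 0.073), Plxna2 (0.85, adjusted p = 0.053) and Sema3a (3.49, adjusted p = 0.072) in prefrontal neurons, Slit1 (-2.07, adjusted p = 0.066) and Sema7a (1.35, adjusted p = 0.052) in motor neurons, Epha10 (0.55, adjusted p = 0.063) in auditory neurons and Slit1 among systems (adjusted p = 0.067). Gad2 was at 2.66 to 17.1 CPM in prefrontal sums, 0 to 21.3 in auditory sums and at most 0.24 in the others, and its part in the prefrontal and auditory differences was not tested.

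Thalamic neurons were also compared inside animals, by whichever of 3 anchor genes (Tnnt1, Necab1 or Calb2) had the highest level in the cell. None of the anchors is a guidance gene of the set, and 1899 of 1972 cells received a class. Sums of at least 5 cells, with animal and system as a block, gave 19 Tnnt1, 20 Necab1 and 18 Calb2 sums. Both Tnnt1 and Calb2 classes were present in 17 of these blocks, none of them somatosensory. Each block is counted as an animal below, although 1 animal identifier covers both auditory replicate 5 and visual replicate 1. Of the 43 members tested (12038 genes in all), 10 were called between Calb2 and Tnnt1 classes: 4 higher in Calb2 cells (against 6.33% of all genes) and 6 lower (against 5.75%). The median log2 fold change over the 43 was -0.16, against 0.02 over all genes.

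Slit1 and its receptor Robo2 were both higher in Calb2 cells. Slit1 went from 0 to 2.35 CPM (median 0) in Tnnt1 sums and from 0 to 27.4 CPM (median 7.17) in Calb2 sums, and was higher in Calb2 cells in 15 of 17 animals and lower in 1. The difference was 4.75 ± 0.84 (log2, adjusted p = 4.7e-05). Robo2 went from 0 to 48.7 CPM (median 11.2) in Tnnt1 sums and from 12.6 to 75.7 CPM (median 44.3) in Calb2 sums. It was higher in Calb2 cells in 15 of 17 animals, in all 5 auditory, 3 prefrontal and 4 visual animals and in 3 of 5 motor animals, by 1.94 ± 0.41 (adjusted p = 0.00056). The Robo2 call ended without batch 3 (1.67, adjusted p = 0.14). Robo1 was not called.

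Efnb3, a transmembrane ligand of EphB receptors and Epha4, went from 0 to 9.78 CPM (median 0) in Tnnt1 sums and from 0 to 50.1 CPM (median 18.2) in Calb2 sums. Calb2 cells were higher in 13 of 17 animals and lower in 1, by 4.20 ± 0.90 (log2, adjusted p = 0.00072). Plxnc1, a receptor of Sema7a, was higher in Calb2 cells in 16 of 17 animals, with medians of 33.2 CPM in Tnnt1 sums (15.0 to 140.3) and 76.9 CPM in Calb2 sums (30.7 to 144.5), by 1.01 ± 0.24 (adjusted p = 0.0029). Sema7a went the other way. It fell in Calb2 cells by 2.39 ± 0.60 (adjusted p = 0.0043), from a median of 14.4 CPM (1.159 to 40.4) to 1.25 CPM (0 to 15.2), lower in 14 of 17 animals. Without batch 3 the calls of Plxnc1 (0.78, adjusted p = 0.18) and Sema7a (-2.32, adjusted p = 0.17) ended.

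Epha4 and Epha7 were lower in Calb2 cells. Epha4 had medians of 490.6 CPM in Tnnt1 sums (281.7 to 754.1) and 332.9 CPM in Calb2 sums (137.4 to 678.6), with overlapping ranges, and was lower in Calb2 cells in 15 of 17 animals, at -0.65 ± 0.11 (log2, adjusted p = 4.4e-05). Epha7 was lower in 13 of 17 animals, at -0.87 ± 0.25 (adjusted p = 0.013). Its motor class means were 126.9 CPM in Calb2 and 115.2 CPM in Tnnt1 sums, the opposite order, and Calb2 cells were higher in 2 of 5 motor animals. The Epha7 call ended without batch 2 (-0.77, adjusted p = 0.15) or batch 3 (-0.92, adjusted p = 0.11).

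Another 3 semaphorins had adjusted p-values nearer to the threshold. Sema5a was lower in Calb2 cells, at -0.84 ± 0.26 (log2, adjusted p = 0.026), Sema4g at -0.75 ± 0.24 (adjusted p = 0.032) and Sema6a at -0.52 ± 0.17 (adjusted p = 0.043). The Sema5a call ended without prefrontal replicate 3 or visual replicate 2, 3 or 4 (adjusted p 0.058 to 0.066). The Sema4g call ended without auditory replicate 4 or 5, motor replicate 1 or 3, prefrontal replicate 2 or 3, or visual replicate 2 or 4 (adjusted p 0.054 to 0.081). The Sema6a call ended without auditory replicate 2, 3 or 4, motor replicate 1, 3, 4 or 5, prefrontal replicate 2, 3 or 4, or somatosensory replicate 1 (adjusted p up to 0.094). With the top anchor at least 2-fold above the next, Sema5a (adjusted p = 0.087) and Sema6a (0.11) ended. Without the low-count filter Sema4g (adjusted p = 0.17) and Sema6a (0.069) ended, and in class sums of at least 10 cells Sema6a (0.086). All 3 ended without batch 2 or batch 3 (adjusted p 0.1 to 0.46).

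In Necab1 cells Sema6a alone was called by edgeR among the 43, higher by 0.49 ± 0.14 than the mean of the other classes (log2, adjusted p = 0.020), where 2.76% of all genes were higher and 4.27% lower. That call ended where the top anchor had to be at least 2-fold above the next (0.35, adjusted p = 0.48) and without batch 1 (0.44, adjusted p = 0.065), 2 (0.50, adjusted p = 0.13) or 3 (0.57, adjusted p = 0.13). At an unadjusted p under 0.05, 8 members passed in that contrast, and DESeq2 called 8, with no share of all genes given here for either.

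**Figure D3:**
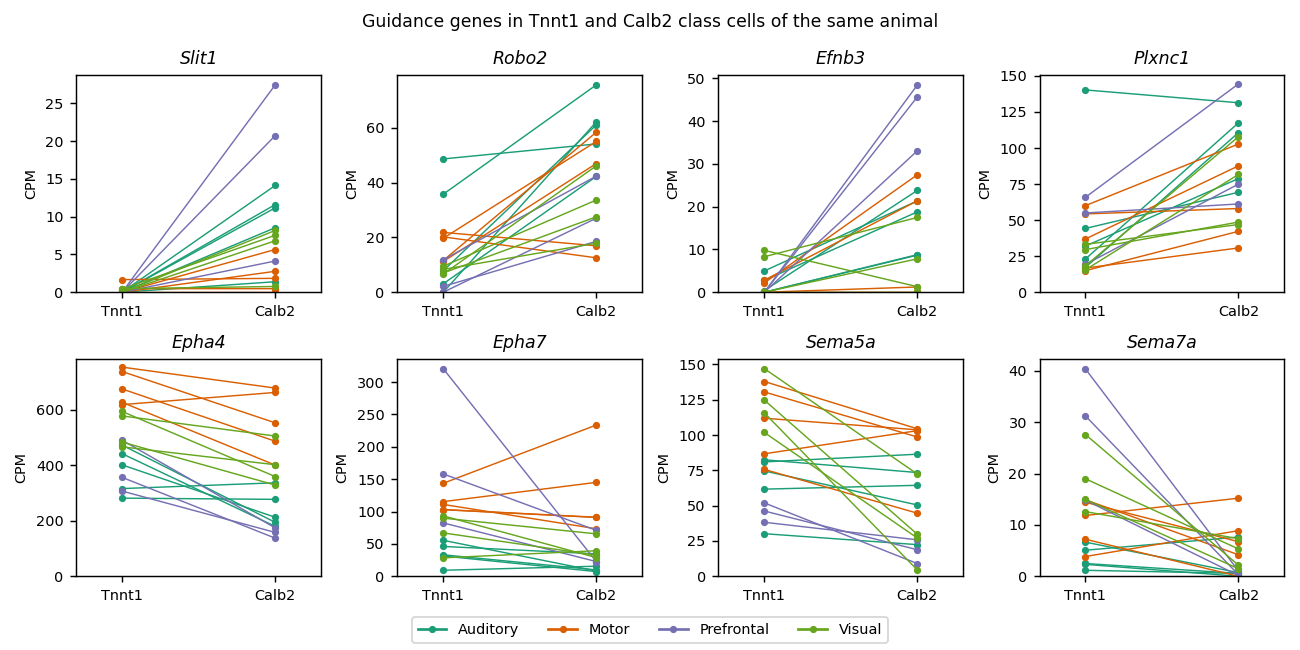
CPM (y axis, linear) of 8 guidance genes in Tnnt1 and Calb2 class cells of the same animal (lines join 2 sums of 1 animal, colour gives the system; 17 animals). Slit1 lines rise in 15 of 17 animals and Epha4 lines fall in 15 of 17.

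The authors' clusters within a system (17 in all) and over all systems (9) were made from the genes of the same cells, so levels in them are given without a test, as CPM of the pooled cluster. Within auditory neurons, cluster Aud_3 (63 cells, 61 of the Calb2 class) had Epha4 at 84.4, against 409.6 in Aud_1 (101 cells, 75 of the Tnnt1 class) and 322.2 in Aud_2. Aud_3 also had Efnb3 at 31.7 and Slit1 at 15.2, against 1.79 and 0 in Aud_1. Sema3f was at 10.6, 13.7 and 26.6 in the 3 auditory clusters, and at most 6.01 in any cluster of another system. Nrp2, its receptor partner, was at 12.3 in Aud_3 and at 0.112 and 0.411 in the other 2 auditory clusters.

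Prefrontal clusters shared part of their profile. Epha5 was at 275.1, 298.8 and 313.5 in Pfr_2, Pfr_3 and Pfr_4, but at 42.8 in Pfr_1, the smallest (44 cells, 38 of the Tnnt1 class). Pfr_1 had Sema7a at 23.4 and Slit1 and Efnb3 at 0, whereas Pfr_3 had Slit1 at 24.99, Efnb3 at 33.4, Sema5b at 20.6 and Slit2 at 14.97. Epha7 was at 148.4 in Pfr_1 and 154.8 in Pfr_2, and at 27.8 in Pfr_3 and 37.0 in Pfr_4. All 113 cells of Pfr_3 came from 2 animals of batch 1, so cluster and batch cannot be told apart there. Over all cells of these animals, Slit2 was at 0.44 in prefrontal replicate 1 and at 18.6 in replicate 2. The Slit2 level of Pfr_3 thus came mostly from 1 animal.

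Motor, somatosensory and visual clusters differed in the same genes. Epha4 was at 449.3 to 705.0 in the 4 motor clusters and at 428.6 to 626.0 in the 3 somatosensory clusters. In visual clusters it was at 556.6, 547.7 and 358.3. Plxnc1 was at 9.74 in Mot_1, 19.3 in Som_1 and 9.39 in Vis_1, and at 35.1 to 82.1 in the other 7 clusters of these systems. Sema7a ran the other way, at 18.6 in Mot_1, 23.7 in Som_1 and 20.03 in Vis_1, against 3.08 to 12.97 in the others. Robo2 was at 94.1 in Som_3 and 3.00 in Vis_1. Slit1 was at 16.6 in Som_3, 0 in Som_1 and 0.81 in Som_2. Sema5a was at 16.3 in Vis_3 and 148.0 in Vis_1.

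Among the 9 clusters over all systems, cluster 1 (174 cells, 63 motor and 80 somatosensory) had Plxnc1 at 16.6, Slit1 at 0 and Sema7a at 21.95. Cluster 8 (65 cells, 62 of them auditory) had Plxnc1 at 110.5, Epha4 at 89.6, Epha7 at 2.99, Sema3f at 26.5 and Unc5a at 12.5. Cluster 9 (99 prefrontal cells, all from 2 animals of batch 1) had Epha4 at 166.1, Sema6a at 8.08, Sema5b at 22.1 and Unc5b at 15.6. Cluster 7, with 212 prefrontal of 259 cells, had Epha5 at 302.6 (233.2 to 516.0 over animals with at least 5 cells).

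**Figure D4:**
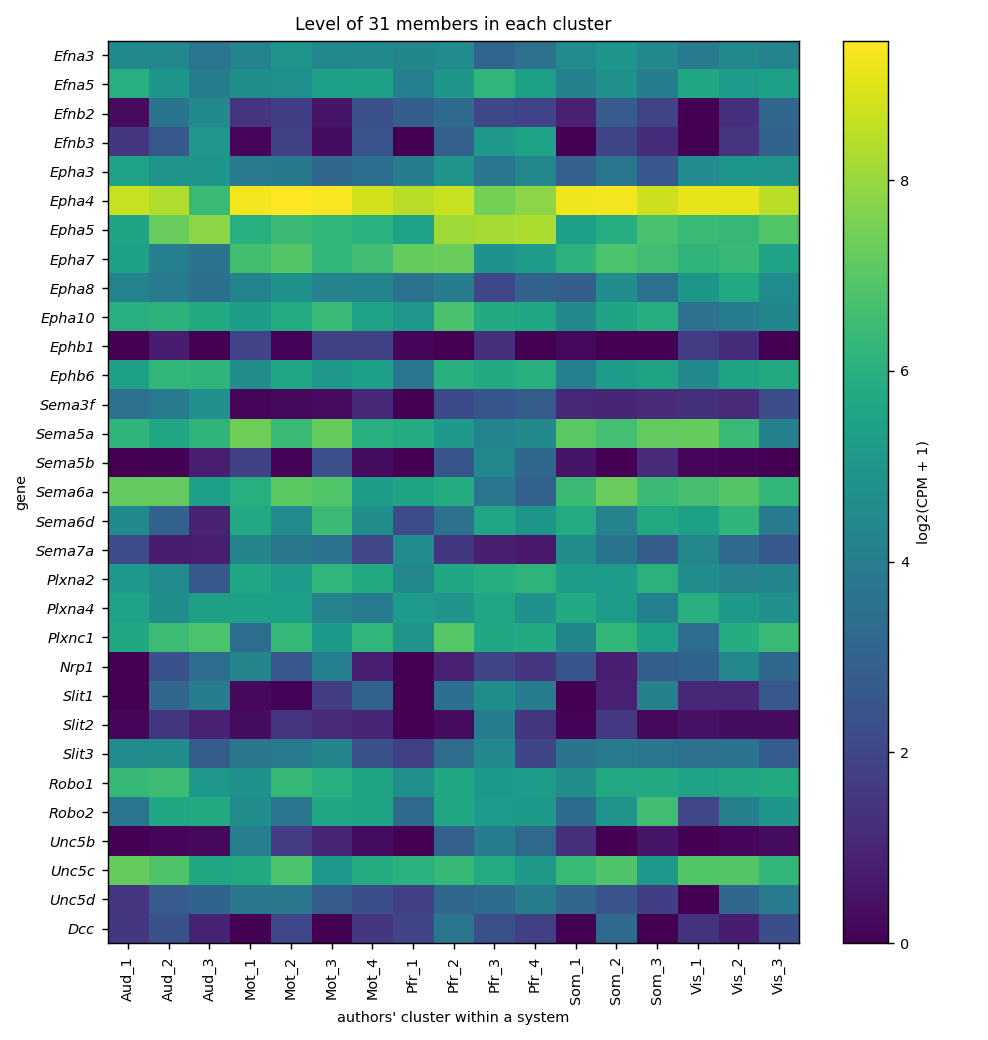
Level of 31 members as log2(CPM + 1) (colour) in the authors' 17 clusters within systems (x axis; Aud auditory, Mot motor, Pfr prefrontal, Som somatosensory, Vis visual). Epha4 is the brightest row, Plxnc1 is dark in Mot_1, Som_1 and Vis_1, and Efnb3 is brightest in Aud_3, Pfr_3 and Pfr_4 (31.7, 33.4 and 43.4 CPM).

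Other genes of the guidance pathways were read from 2 fixed lists. Of 52 genes that carry the signal inside the cell, all were tested and 13 were called among systems, beside the 12.6% of all genes. Of 30 other cues and co-receptors, 28 were tested and 12 were called (42.9%). In prefrontal neurons 4 signalling genes were higher and 4 lower, and 4 other cues or co-receptors were higher and 5 lower, where 5.19% of all genes were higher and 3.97% lower. In auditory neurons the counts were 4 and 0 and, for other cues, 4 and 2 (4.28% and 3.69% of all genes). In motor neurons they were 3 and 0 and then 2 and 2 (2.32% and 1.59% of all genes). The prefrontal calls include Mag, a myelin gene that is also 1 of the 7 oligodendrocyte markers, at 0 to 0.295 CPM in prefrontal sums and 0 to 18.5 CPM in the others, and the part of oligodendrocyte RNA in that call was not tested.

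Among the signalling genes with the lowest adjusted p among systems were Chn2, Ngef, Vav3 and Dpysl5. Chn2, a Rac GTPase-activating protein, was at 101.6 ± 20.4 CPM in prefrontal sums (SD, n = 4) and at 20.6 to 38.2 CPM in the other means, higher by 1.71 ± 0.22 (log2, adjusted p = 2.7e-05). Ngef, an exchange factor that acts downstream of Eph receptors, was higher by 3.83 ± 0.73 in prefrontal (adjusted p = 0.0015) and by 3.42 ± 0.69 in auditory neurons (adjusted p = 0.0034). Vav3, a guanine nucleotide exchange factor, was higher by 0.41 ± 0.09 in motor neurons (adjusted p = 0.0075) and lower, at -0.53 ± 0.10 in prefrontal neurons (adjusted p = 0.0014). Dpysl5, of the collapsin response mediator family, was higher by 1.06 ± 0.17 in prefrontal neurons (adjusted p = 0.00023).

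The 5 other cues or co-receptors were Sdc2, Vangl2, Ncam1, Nfasc and Nrcam. Sdc2, a heparan sulfate proteoglycan, was at 82.5 ± 21.8 CPM in prefrontal sums (SD, n = 4), at 42.8 ± 8.11 CPM in auditory sums (SD, n = 5) and at 8.75 to 13.1 CPM in the other means. It was higher by 2.23 ± 0.22 in prefrontal (log2, adjusted p = 1.9e-06) and by 1.124 ± 0.22 in auditory neurons (adjusted p = 0.0021), and lower, at -1.78 ± 0.27 in motor neurons (adjusted p = 0.00062). Vangl2, a planar cell polarity protein, was higher by 1.65 ± 0.29 in auditory neurons (adjusted p = 0.0011). Ncam1, a neural cell adhesion molecule, was higher by 0.64 ± 0.14 in prefrontal (adjusted p = 0.006) and lower, at -0.52 ± 0.14 in motor neurons (adjusted p = 0.031). Nfasc, an L1 family adhesion molecule, was lower, at -0.30 ± 0.09 in prefrontal neurons (adjusted p = 0.047). Nrcam, of the same family, was lower, at -0.43 ± 0.09 in auditory neurons (adjusted p = 0.005).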

How the data were processed

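Single neurons from mouse thalamus were measured on 26 plates in 3 batches. The authors deposited unnormalized UMI counts, with a table giving each cell's animal, projection system and clusters. The submitters' processing notes name cutadapt 1.16, STAR 2.5.3, Picard 1.12 and the build mm10; the annotation and counting rule are not given in the sources used here. Cell names were unique, with 375 distinct barcodes reused between plates. The 90 spike-ins were left out.

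Counts were summed per animal and system (at least 10 cells) or per animal, system and anchor class (at least 5 cells). edgeR 4.0.16 in R 4.3.3 was run with TMM scaling, filterByExpr, a trended dispersion and the quasi-likelihood F test, with batch as covariate for systems (14 residual degrees of freedom) and animal with system as block for classes (35). Benjamini-Hochberg adjustment ran over all genes tested. Each system was set against the mean of the other 4, so these comparisons share sums. The scripts were tested on simulated data. Alternatives were DESeq2 1.42.0, no low-count filter, a common dispersion, no batch term, sums per sort date, and leaving out each sum, each batch, the flagged cells or cells with at least 3 markers of a non-neuronal type. For classes they also included a 2-fold margin between anchors and sums of at least 10 cells. For shares of cells each cell was thinned to 20000 UMIs, and 0 cells were below that. Floors are 3 counts over a group and cover counting error only.

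The genes given in every sum were those called among systems with a mean of at least 10 CPM; in each contrast called genes were named by fold, and in each pathway list the 5 with the lowest adjusted p. A gene that this rule names in the signalling list is not reported here. The members, lists and tests were chosen with earlier results of these data known. Reads of genes with an antisense neighbour at the 3' end (Efna3, Epha1, Epha6, Ephb1, Ephb4, Plxna1, Ntn5 and Unc5a) are uncertain where counting ignored strand.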

Additional observations from a re-analysis of the deposited data

Results flagged for a closer look

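Of 52 groups of 4 or 5 sums, 3 held a sum far from the others, and chance alone flags about 1 in 20 groups. Epha7 was at 49.38 CPM in auditory replicate 4 and at 14.54 to 20.89 CPM in the other 4 auditory sums. Robo1 was at 120.2 CPM in auditory replicate 3 and at 62.61 to 71.85 CPM in the other 4. Sema6a was at 90.65 CPM in visual replicate 4 and at 108.7 to 109.9 CPM in the other 3 visual sums. The Epha7, Robo1 and Sema6a calls in auditory neurons held without each sum in turn.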

How the results depend on the processing

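Of 45 calls of single members, 26 held without each sum in turn and 11 in every planned setting. These 11 were Epha7, Sema3f and Sema7a in auditory neurons, Epha4 in motor neurons, and Epha5, Sema5a, Sema5b and Sema6a in prefrontal neurons. The others of the 11 were Efnb3, Epha4 and Slit1 between Calb2 and Tnnt1 classes. Over 1389 planned settings 1170 kept the call, 219 lost it with the direction unchanged and 0 reversed. Within batch 1 alone, an alternative chosen after seeing the data, Epha10 reversed to -0.10 in auditory (adjusted p = 0.94) and -0.18 in prefrontal neurons (adjusted p = 0.78). The 18 members called among systems became 28 without a low-count filter, 11 without batch 3, and 8, 6 and 8 within batches 1, 2 and 3. The 10 auditory calls became 16 with DESeq2, 16 without the filter, 4 without batch 1, 6 without batch 2, and 5, 1 and 3 within batches. The 8 motor calls became 13 without the filter, 1, 15 and 2 without batches 1, 2 and 3, 4 with no batch term, 1 in sums per sort date, and 0 and 2 within batches 2 and 3. The 15 prefrontal calls became 7 without batch 1, 7 without batch 3, and 5, 2 and 1 within batches. The 0 somatosensory calls became 1 with DESeq2, 3 without the filter, 1 without batch 1, 3 with no batch term and 1 within batch 2. The 1 visual call became 3 with DESeq2, 6 without the filter, 3 without batch 1, 2 without batch 2, 3 with no batch term and 4 within batch 3. The 10 calls between Calb2 and Tnnt1 classes became 6 without batch 2 and 3 without batch 3. The 1 Necab1 call became 8 with DESeq2, 4 without the filter, 0 without batch 1, 0 without batch 2, 2 with a 2-fold anchor margin (Sema6a, the 1 call, not among them) and 2 in sums of at least 10 cells. Leaving out 1 sum gave 16 to 19 among systems, 9 to 12 auditory, 4 to 9 motor, 7 to 16 prefrontal, 0 to 1 somatosensory, 0 to 2 visual, 7 to 11 between Calb2 and Tnnt1 classes and 1 to 3 for Necab1. Leaving out a batch or fitting 1 alone uses fewer sums. Within batches 2 and 3 some systems had 1 sum, assumed to vary like the others. Otherwise the cause was not tested. Shares of all genes called are not given for these settings, so the counts describe the members only. No paired analysis was possible because, between systems, replicate numbers only name animals, with 1 animal identifier shared by 2 systems; the class comparison already had the animal as a block.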
